A study of Mus musculus with 5 samples.

Results

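The genes described here are the ephrin, semaphorin, Slit and netrin guidance genes, that is the ligands and receptors through which cells attract or repel each other by contact or over a short distance. They were chosen by symbol: every probe of the platform annotation named for an Eph receptor, ephrin, semaphorin of classes 3 to 7, plexin, Slit, Robo, netrin or Unc5 receptor. This gave 78 of 24613 probes and 59 of 15967 named genes. The rule itself uses no expression value, but the members and the gene lists used below were chosen with earlier results of these data known. RNA was measured on 5 Illumina arrays of F9 cells, a mouse embryonal carcinoma line, and all 5 samples carried the same retinoic acid treatment, under which F9 cells differentiate towards extra-embryonic endoderm. Control cells gave 2 arrays, and cells with a joint knockdown of Sox7 and Sox17, related transcription factors of endoderm and blood vessels, gave 3. No source used here gives the dose or duration of retinoic acid, how the knockdown was done or what the control cells received. Nor does a label tie the numbered samples to separate cultures, so that p-values reflect only how these samples spread, and that spread may be technical.

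Eph receptors are tyrosine kinases that bind ephrins on a neighbouring cell. Ephrin-A ligands hang on a lipid anchor and ephrin-B ligands span the membrane, so that signals can run into either cell. Semaphorins act through plexins, and most secreted class 3 members also need a neuropilin co-receptor. Slits bind Robo receptors, and netrins bind Dcc and Unc5 receptors. These families were first described in growing axons and also shape epithelia and vessels, where the pair of ephrin-B2 and EphB4 separates arteries from veins and Robo4 lies on endothelium.

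Values are the deposited normalized intensities, which have no unit and can be negative because background was subtracted. A probe counted as above noise on an array when it exceeded a threshold of 20.1 to 20.2, estimated from the array's own values below 0, and was tested when above noise on at least 2 of 5 arrays. Differences are knockdown minus control on the log2(intensity + 16) scale, where the changes of dim probes come out too small. Where several probes of a gene were tested, the one brightest on average (log2 scale) stands for it, and a gene was called at a limma adjusted p below 0.05, with Benjamini-Hochberg adjustment over all 13624 tested probes. "Rose" and "fell" are used of called genes only. Sox17 read 1798 and 1732 on the control arrays and 243 to 309 on the knockdown arrays (adjusted p = 0.00081), and Sox7 read 1306 and 1152 against 403 to 490.1 (adjusted p = 0.0021). All 11 endoderm markers examined, such as Gata4, Gata6 and Dab2, fell, and the 7 pluripotency markers with a probe were above noise. Of these, Nanog rose by 0.46 (adjusted p = 0.039), Lin28a fell by 1.05 (adjusted p = 0.0083) and 5 were not called, and their summed intensity was 38183 to 41801 on control and 46909 to 47969 on knockdown arrays.

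The guidance genes did not all move in the same direction: Efnb2, Efnb3, Sema3f, Sema4a, Sema4b, Sema6c, Plxna2, Robo4 and Ntn3 rose, while Efna4, Epha4 and Sema4g fell. Of 59 genes with a probe, 38 were tested. Of these, 9 rose, 3 fell and 26 were not called, so that 31.6% were called, beside 17% of the 9685 genes tested on the arrays. By direction, 23.7% rose and 7.89% fell, beside 8.99% and 7.97% of all genes. Efnb3, counted among the rises, passed the noise filter through knockdown arrays only, where it was high. The median difference was 0.12, against 0.0047 over all genes, and the groups did not overlap for 25 members (65.8%, against 51.6% of all genes). Fewer cells of a type and less RNA per cell cannot be told apart in such samples. These counts rest on few arrays: without control replicate 1, the calls were 4 higher (Slit3 among them, not called with all arrays) and 0 lower, and without control replicate 2 they were 1 higher and 0 lower.

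**Figure D1:**
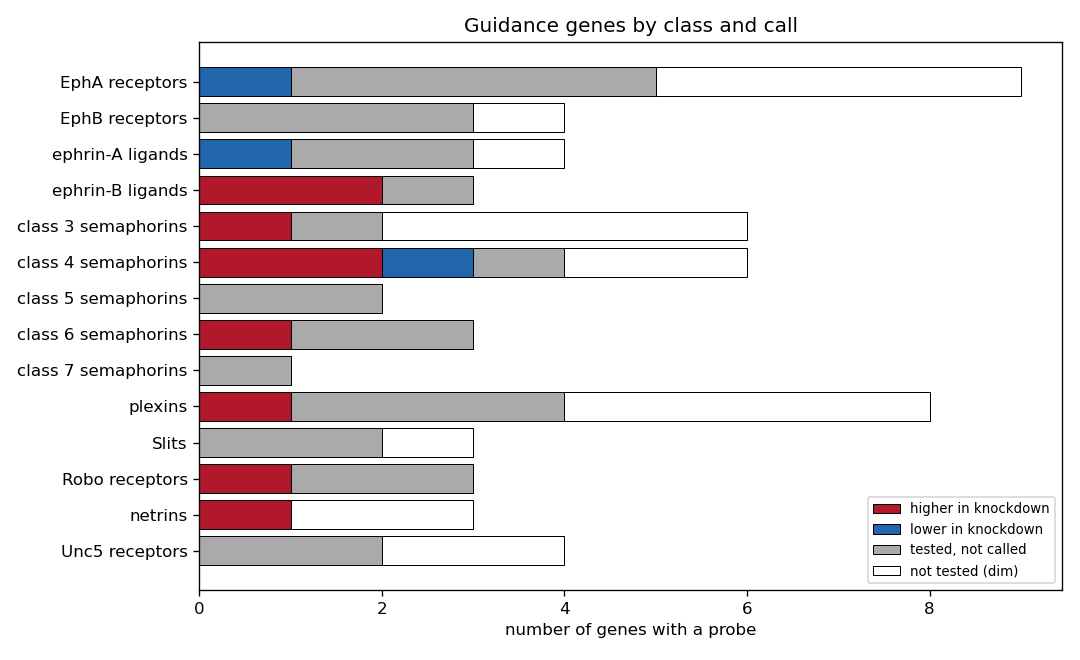
Number of guidance genes with a probe in each family class (horizontal axis), split into genes called higher in knockdown cells (red), called lower (blue), tested but not called (grey) and not tested because the probe was too dim (white). Class 4 semaphorins are the class with calls in both directions, 2 higher and 1 lower of 4 tested genes (75% called, beside 17% of all genes).

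Among 21 tested ligand genes there were 7 rises and 2 falls (42.9% called, beside 17% of all genes), and the median difference was 0.19. These rises include Efnb3, which passed the noise filter through knockdown arrays only. Among 17 tested receptor genes there were 2 rises and 1 fall (17.6% called, near the share of all genes), and the median was -0.0093. Whether ligands and receptors differ was not tested. Without control replicate 1 the called ligands numbered 3 and the called receptors 1, and without control replicate 2 they numbered 1 and 0. Leaving out any single knockdown array also left 1 called receptor.

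Many members were too dim to be compared. The 21 untested genes were under the noise threshold on every array (17 genes) or above it on 1 array (4 genes: Epha10, Sema3e, Sema4c and Slit2). The 17 genes were the Eph receptor genes Epha5, Epha6, Epha7 and Ephb1, the ephrin gene Efna2, and the semaphorin genes Sema3a, Sema3c, Sema3d and Sema4f. They also held the plexin genes Plxna1, Plxna3, Plxnb3 and Plxnc1, the netrin genes Ntn1 and Ntn4, and the netrin receptor genes Unc5c and Unc5d. A further 7 mouse genes whose symbols match, Efna3, Ephb2, Ntn5, Plxnb2, Robo3, Sema3g and Sema6b, were not analysed here. Of the 38 tested genes, 28 were above noise on all 5 arrays, and Efnb3 passed the filter through knockdown arrays only, where it was high.

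**Figure D2:**
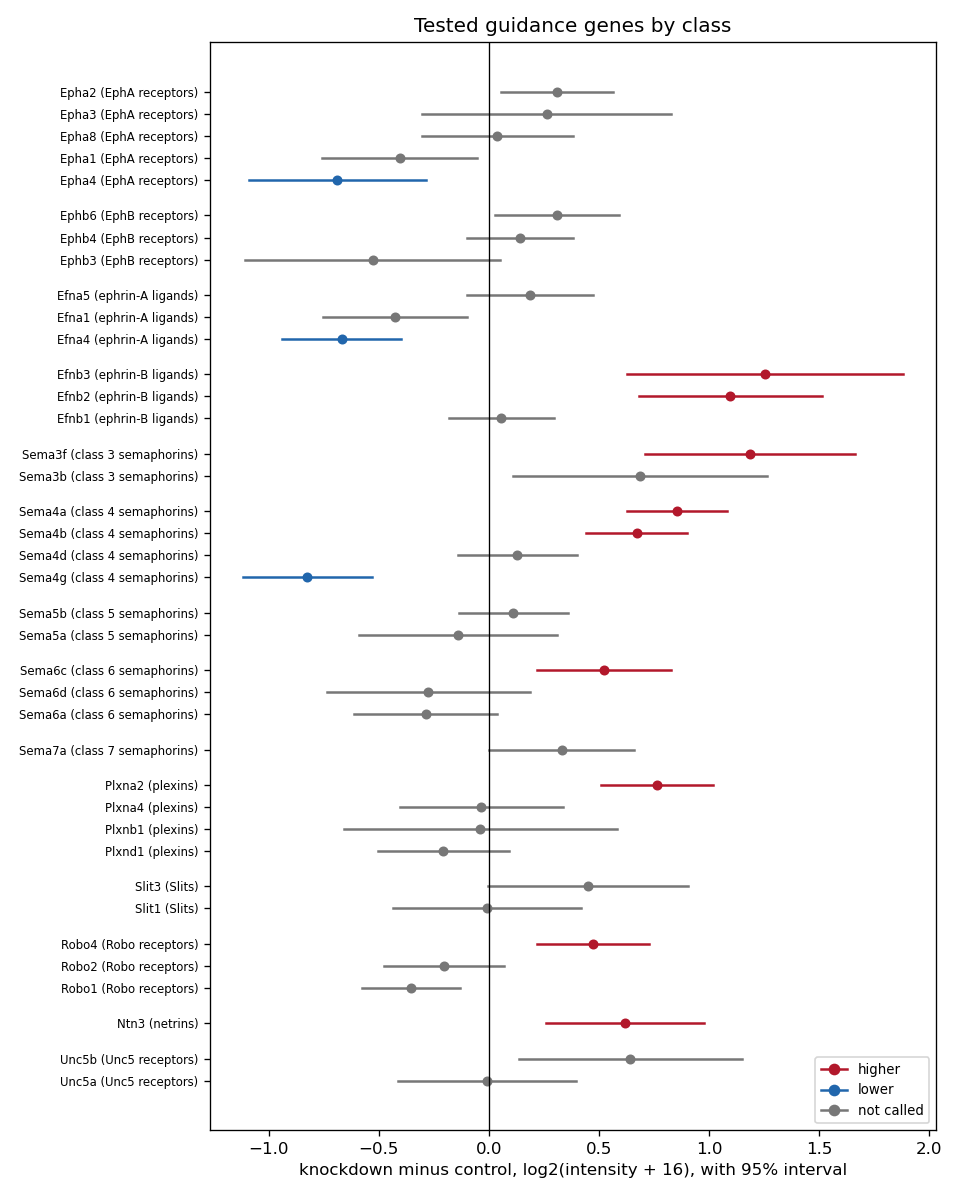
Difference between knockdown and control cells on the log2(intensity + 16) scale for the 38 tested guidance genes, grouped by class. Points are differences and lines 95% intervals of the limma fit, red where called higher, blue where called lower and grey where not called. Efnb3, Sema3f and Efnb2 lie above 1, and Sema4g lies lowest at -0.83.

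Among the ligands for Eph receptors, Efnb2 and Efnb3 rose and Efna4 fell. Efnb2, the arterial ephrin-B2 ligand (ILMN_2716212), read 50.1 and 55.4 on control arrays 1 and 2 and 136, 104 and 158 on knockdown arrays 1 to 3. The groups were far apart, and Efnb2 rose by 1.10 (SE 0.171, adjusted p = 0.011), a 2.14-fold difference. Leaving out control replicate 1 or 2 ended the call (adjusted p = 0.073 and 0.067), and the difference then was 1.04 or 1.15. Efnb3, a transmembrane ephrin known from midline axon guidance (ILMN_2681212), read -1.05 and 7.13 on the control arrays, both under the noise threshold, and 37.9, 36.9 and 17.95 on the knockdown arrays. It was at least 1.45-fold higher in knockdown cells (adjusted p = 0.026), with knockdown replicate 3 itself under the threshold. The call was lost without any 1 array other than knockdown replicate 3 (adjusted p from 0.064 to 0.13). Efnb1, the third ephrin-B gene, was bright and read 2393 and 2300.4 in control cells against 2446, 2565 and 2319.9. Its groups overlapped, and the difference was 0.057 with a 95% interval from -0.18 to 0.30 (adjusted p = 0.73).

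Efna4, a lipid-anchored ephrin, fell at both of its probes. The brighter probe (ILMN_1217493) read 335 and 304 on the control arrays and 201, 177 and 207 on the knockdown arrays. It fell by 0.67 (SE 0.112, adjusted p = 0.014), to 62.8% of the control level. The dimmer probe (ILMN_2691352) read 222 and 182 against 145, 106 and 119 and fell by 0.65 (adjusted p = 0.040). No knockdown array reached a control array at either probe. Without control replicate 1 or 2 the brighter probe's adjusted p was 0.086 or 0.065. Efna1, an ephrin-A ligand of EphA2, read 145 and 183 against 130, 108 and 115 and was not called (difference -0.43, adjusted p = 0.086), although the groups did not overlap. Efna5 differed by 0.19 (adjusted p = 0.33), with overlapping groups.

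Of 8 tested receptors for ephrins, Epha4 was called (12.5%, beside 17% of all genes). Epha4, a receptor that binds ligands of both ephrin types (ILMN_2724014), read 183 and 221 on the control arrays and 134, 129 and 95.7 on the knockdown arrays. It fell by 0.69 (SE 0.165, adjusted p = 0.041), to 62.0% of the control level, and lost its call whichever array was left out (adjusted p from 0.057 to 0.21). With an offset of 8 the adjusted p was 0.055. Epha2, an epithelial receptor, read 300 and 292 against 356, 404 and 354, and its difference of 0.31 was not called (95% interval 0.053 to 0.57, adjusted p = 0.10). Ephb4, the main receptor of ephrin-B2, read 488 and 542 against 560.2, 562 and 585. Its difference was 0.14 with an interval from -0.10 to 0.38 (adjusted p = 0.38), while its ligand gene Efnb2 rose. Ephb6, a kinase-dead receptor, differed by 0.31 (adjusted p = 0.13). The remaining tested Eph genes, Epha1, Epha3, Epha8 and Ephb3, were dim, with means of at most 39.2 in either group, and differed by -0.53 to 0.26. Epha1 differed by -0.41 at its brighter probe and by -0.80 at its dimmer one. Neither was called (adjusted p = 0.11 at both), and the groups overlapped at neither.

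**Figure D3:**
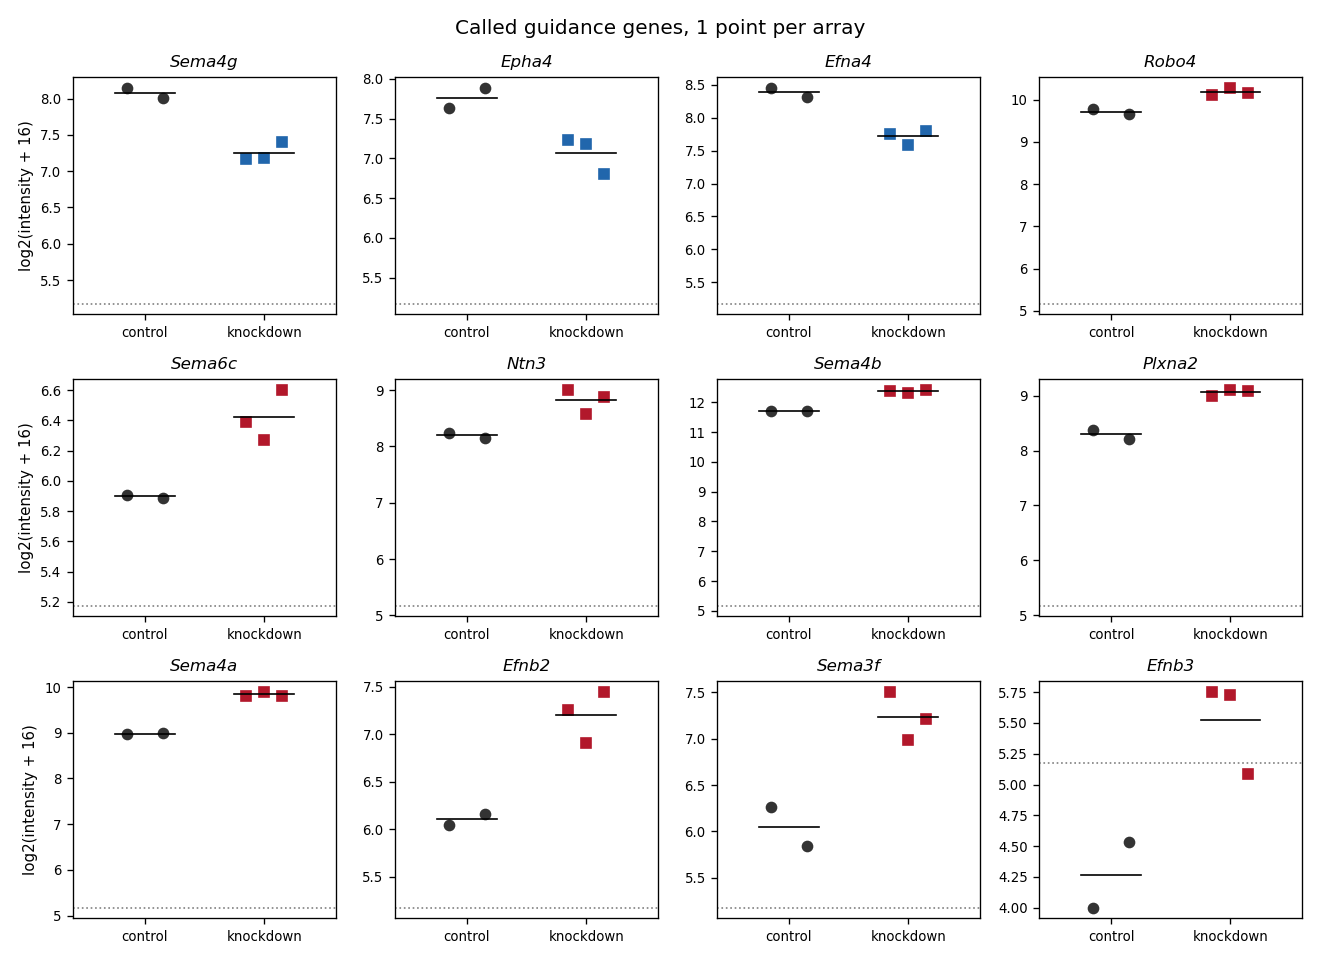
Values of the 12 called guidance genes on each array, on the log2(intensity + 16) scale, ordered from the most lowered to the most raised. Circles are control arrays, squares knockdown arrays (blue for genes that fell, red for genes that rose), short lines group means and the dotted line the mean noise threshold; each panel has its own vertical range. The groups do not overlap in any panel, and only for Efnb3 do points lie under the threshold.

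Of 12 tested semaphorin genes, 4 rose and 1 fell (41.7% called, beside 17% of all genes). Sema4a, a membrane-bound class 4 semaphorin (ILMN_1215120), read 489 and 490.5 on the control arrays and 882, 934 and 882 on the knockdown arrays. It rose by 0.86 (SE 0.0929, adjusted p = 0.0039), a 1.81-fold difference, and was the only called member to keep its call with each array left out in turn (adjusted p from 0.015 to 0.037). Sema4b, a related class 4 gene (ILMN_1226447), read 3307 and 3334 against 5368, 5080.0 and 5458. Its groups were separated by many times the spread within them, and it rose by 0.67 (SE 0.0940, adjusted p = 0.0084). Without control replicate 1 or 2, which leaves 1 control array, the adjusted p was 0.057 or 0.060.

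Sema4g went the other way. This class 4 semaphorin gene (ILMN_2718314) read 267 and 241 on the control arrays and 128, 129 and 154 on the knockdown arrays. It fell by 0.83 (SE 0.120, adjusted p = 0.0094), to 56.4% of the control level. The call was lost without control replicate 1 or 2 (adjusted p = 0.064 and 0.052). Sema4d, the ligand of plexin-B1, lay close to the noise threshold at 26.4 and 23.9 against 29.7, 25.2 and 32.4 (adjusted p = 0.47).

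Sema3f, a secreted class 3 semaphorin that repels axons and vessels through neuropilin-2 (ILMN_1248740), read 60.7 and 41.3 on the control arrays. On the knockdown arrays it read 166, 111 and 133, all above both controls. It rose by 1.19 (SE 0.196, adjusted p = 0.013), a 2.28-fold difference, and lost its call without control replicate 2 (adjusted p = 0.086). A second Sema3f probe was under the noise threshold on every array. Sema3b, another secreted class 3 gene, read 74.8 and 66.5 against 85.9, 163 and 132, and its difference of 0.69 was not called (adjusted p = 0.11). Without knockdown replicate 1 the difference was 0.91 and was called (adjusted p = 0.026). Nrp2 was not tested, and Nrp1, the other neuropilin gene, differed by 0.45 (adjusted p = 0.083).

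Sema6c, a transmembrane class 6 semaphorin (ILMN_2707604), read 44.1 and 43.2 on the control arrays and 67.6, 61.3 and 81.1 on the knockdown arrays. It rose by 0.52 (SE 0.125, adjusted p = 0.041), and the call was lost without any 1 array (adjusted p from 0.051 to 0.18). Sema6a and Sema6d differed by -0.29 and -0.28 and were not called. A dimmer Sema6d probe went the other way, by 0.19 (adjusted p = 0.34), and the mean of its tested probes differed by -0.042.

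Sema5a, a membrane semaphorin with thrombospondin repeats, gave a split answer. The probe with the slightly higher mean log2 value (ILMN_1257104) read 48.4 and 49.6 against 44.3, 31.1 and 56.2. The groups overlapped there, and the difference was -0.14 (adjusted p = 0.65). The other probe (ILMN_2604226) read 61.8 and 71.8 on the control arrays and 37.2, 31.4 and 33.0 on the knockdown arrays, without overlap. That probe fell by 0.73 (SE 0.110, adjusted p = 0.010), so Sema5a counts as not called under the rule for genes although 1 of its probes was. Both probes carry the same RefSeq accession in the annotation. Sema5b, the other class 5 gene, differed by 0.11 (adjusted p = 0.50) and by 0.0084 at its dimmer probe. The class 7 gene Sema7a read 20.6 and 22.1 against 24.4, 32.9 and 36.3, near the noise threshold. Its difference of 0.33 was not called (adjusted p = 0.16).

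**Figure D4:**
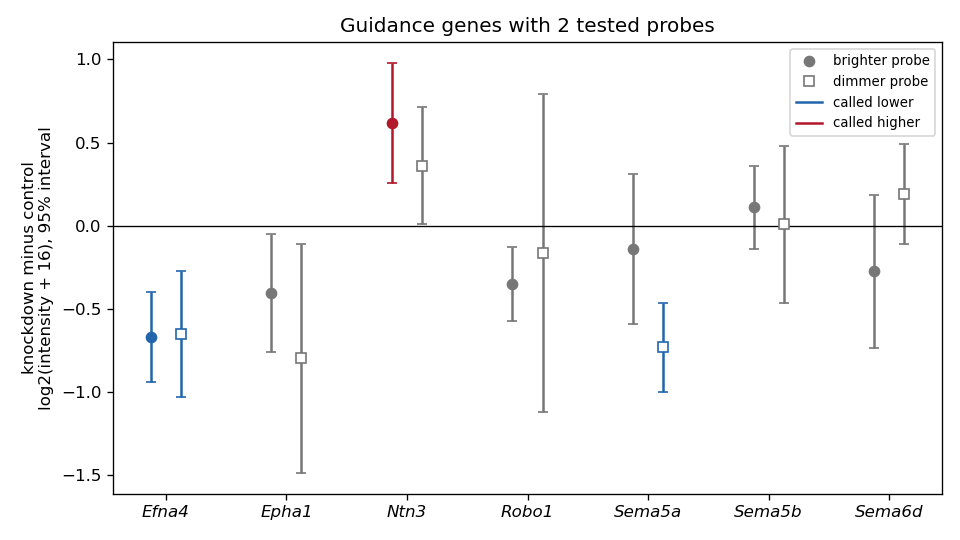
Differences between knockdown and control cells, log2(intensity + 16), with 95% intervals, for the 7 guidance genes with 2 tested probes. Filled circles are the probe with the higher mean log2 value and open squares the other one; blue marks probes called lower and red a probe called higher. Both Efna4 probes were called lower at -0.67 and -0.65, whereas for Sema5a only the second was called, at -0.73 against -0.14.

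Among the plexins, the semaphorin receptors, Plxna2 rose. Plxna2, a receptor of class 3 and class 6 semaphorins (ILMN_2701815), read 318 and 280.0 on the control arrays and 495, 534 and 525 on the knockdown arrays. It rose by 0.76 (SE 0.105, adjusted p = 0.0080), a 1.70-fold difference, and lost its call without control replicate 2 (adjusted p = 0.060). Plxna4, Plxnb1 and Plxnd1, the other tested plexin genes, were dim and differed by -0.21 to -0.034.

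Of the Slit and Robo genes, Robo4 rose and neither tested Slit gene was called. Robo4, a receptor known from endothelium (ILMN_1258560), read 856 and 787 on the control arrays and 1086, 1223 and 1128 on the knockdown arrays. It rose by 0.47 (SE 0.105, adjusted p = 0.033), a 1.39-fold difference, and lost its call whichever array was left out (adjusted p from 0.059 to 0.17). A second Robo4 probe was under the noise threshold on every array. Robo1, an axonal Slit receptor, read 383 and 369 on the control arrays and 294, 294 and 285 on the knockdown arrays. The groups were apart and the difference was -0.35 (SE 0.0915), just outside the call at an adjusted p of 0.0507. At the dimmer second Robo1 probe (ILMN_2421958) the groups overlapped, and the difference was -0.17 (SE 0.392, adjusted p = 0.805). Robo2 differed by -0.20 (adjusted p = 0.27). The ligand gene Slit3 read 21.2 and 8.41 against 26.1, 26.7 and 22.8, near the noise threshold, and was not called (difference 0.45, adjusted p = 0.16). Without control replicate 1 the difference was 0.75 and was called (adjusted p = 0.048). Slit1 differed by -0.0089.

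Of the netrin genes, only Ntn3 could be tested. Ntn3, a secreted netrin (ILMN_2615312), read 288 and 269 on the control arrays and 497, 365 and 455 on the knockdown arrays. It rose by 0.62 (SE 0.148, adjusted p = 0.041). Its second probe read 159 and 134 against 192, 168 and 220.0 and was not called (difference 0.36, adjusted p = 0.14). The call was lost without any 1 array other than knockdown replicate 2 (adjusted p from 0.087 to 0.19), and with the mean of both probes (adjusted p = 0.058). Unc5b, a netrin receptor of vessels that also binds Robo4, read 631 and 438 on the control arrays and 978, 686 and 852 on the knockdown arrays. The groups did not overlap, but the control arrays lay far apart and the difference of 0.64 was not called (adjusted p = 0.091). Unc5a differed by -0.0093 (adjusted p = 0.98).

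**Figure D5:**
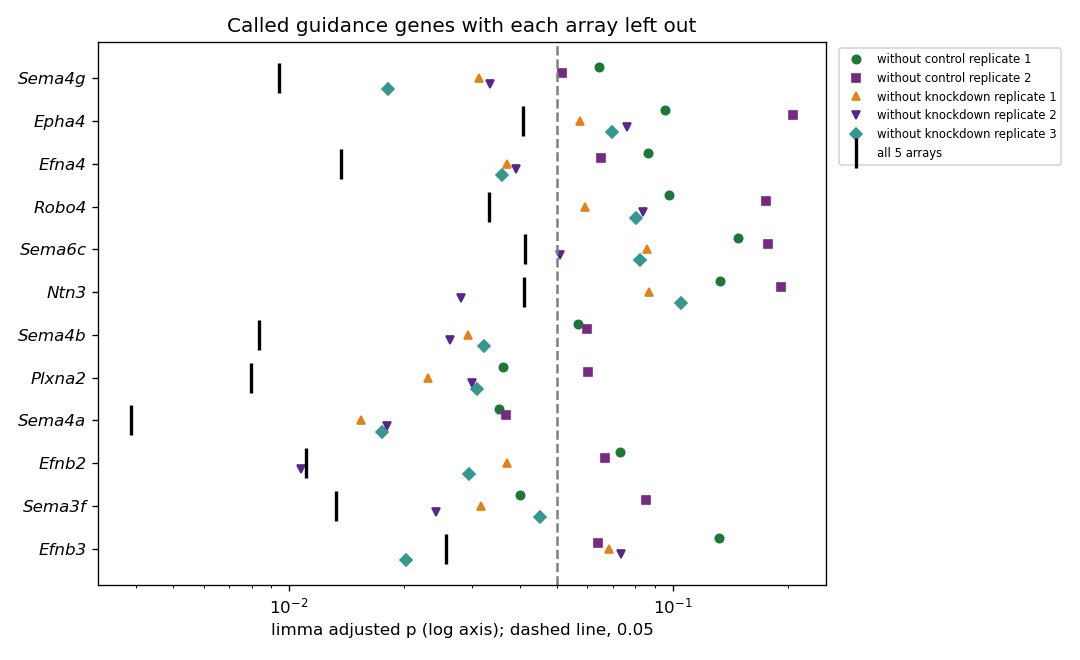
Limma adjusted p (horizontal log axis) of the 12 called guidance genes with all 5 arrays (black bars) and with each array left out (coloured symbols); the dashed line is the threshold of 0.05. All symbols of Sema4a lie left of the line, whereas 9 of the 12 genes lost their call without control replicate 1 and 11 without control replicate 2.

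Among co-receptors and other binding partners of these families, Flrt3 and Dscam fell and Rgma rose. Of 18 partner genes with a probe, 9 were tested, and these 3 were called (33.3%, beside 17% of all genes). Flrt3, a membrane protein that binds Unc5 receptors, read 609 and 511 on the control arrays and 114, 89.1 and 109 on the knockdown arrays. It fell by 2.26 (SE 0.140, adjusted p = 0.00084), a 4.80-fold difference. Dscam, a cell adhesion protein that can act as a netrin receptor, read 50.6 and 28.4 in control cells and stayed under the noise threshold in every knockdown sample, a difference of at least 1.88-fold (adjusted p = 0.0030). It passed the filter through the control arrays only, where it was high. Rgma, a ligand of the netrin receptor relative neogenin, read 473 and 476 against 890.1, 829 and 724 and rose by 0.75 (SE 0.119, adjusted p = 0.011). The call of Flrt3 held with each array left out (adjusted p up to 0.014), and that of Rgma was lost without control replicate 1 or 2 (adjusted p = 0.069 and 0.076). Neo1, the neogenin gene, differed by 0.13 (adjusted p = 0.38), and the netrin receptor gene Dcc was not tested.

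Of 47 intracellular effector genes with a probe, 41 were tested, 6 rose and 1 fell (17.1% called, beside 17% of all genes). Chn2, a Rac-inactivating chimaerin, read 106 and 108 on the control arrays and 21.7, 14.3 and 7.32 on the knockdown arrays, and fell by 2.04 (SE 0.202, adjusted p = 0.0029). Ngef, the ephexin that acts downstream of EphA receptors, rose by 0.89 (SE 0.140, adjusted p = 0.011), and Dpysl3, a collapsin response mediator, rose by 0.80 (SE 0.106, adjusted p = 0.0073). The cofilin kinase gene Limk1 rose by 0.75 and the Rac activator gene Vav3 by 0.48. Arhgef11, which binds plexin-B, rose by 0.42, and Gipc1, an adaptor that binds neuropilin-1, by 0.46. Chn2 kept its call with each array left out, whereas Dpysl3 and Limk1 lost it without control replicate 2 (adjusted p = 0.058 and 0.080) and Ngef without control replicate 1 (adjusted p = 0.059). Vav3 lost it without any 1 array other than knockdown replicate 1 (adjusted p up to 0.11) and differed by 0.12 over the mean of its probes. Arhgef11 and Gipc1 lost theirs without any 1 array (adjusted p up to 0.18 and 0.23). The called effectors numbered 3, 2 and 4 when control replicate 1, control replicate 2 or knockdown replicate 3 was left out.

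Some markers of other cell types that use these genes also moved. Of 17 neural markers with a probe, 11 were tested, 3 rose and 2 fell (45.5% called, beside 17% of all genes). Neurod1, which rose, passed the filter through knockdown arrays only, and Nefm, which fell, through control arrays only. Syp, the other marker that fell, was above noise on all 5 arrays (difference -0.86, adjusted p = 0.018). The summed intensity was 1452 to 1571 on control arrays and 1855 to 2189.9 on knockdown arrays, of which Stmn2 alone gave a mean of 919 and 1293. Sox1, Pax6, Map2, Dcx, Ncam1 and Nefl were under the noise threshold on every array. The 10 endothelial markers summed to 1281 to 1360 against 998 to 1077, with 1 risen and 1 fallen of 5 tested (40.0% called). Esam, which fell, gave a mean of 942 against 622, whereas Eng rose, from 82.5 to 129. Below the noise threshold on every array were Tek, Tie1, Emcn, Kdr and Erg. The 12 fibroblast and smooth muscle markers summed to 492 to 533 against 939 to 1084, with 3 risen of 4 tested (75.0% called). Acta2 gave a mean of 78.0 against 508, and Dcn, which also rose, passed the filter through knockdown arrays only. Of the list, Col1a2, Col3a1, Lum, Postn, Tagln, Cnn1 and Myh11 were under the threshold throughout. The part of such cells in the guidance gene values was not tested.

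Upstream sequences of some called members are shown because Sox proteins bind the core ACAAT, which reads ATTGT on the other strand. The 250 bases before the start used for each gene were searched for either form in the RefSeq sequences of GRCm38.p6, with overlapping matches counted. Of 32 tested guidance genes with such a sequence, 4 held a match (12.5%), against 18.9% of 7861 tested genes and 28.2% of all 27025 genes with a sequence. Median GC content of the windows was 64.8%, 59.6% and 52% in that order, and the shares were not adjusted for it. Those with a match were Robo4, Sema4b and Sema6c, which rose, and Sema4g, which fell. The windows of Robo4 and Sema4g overlap the annotated gene itself, as do those of Plxna2 and Epha4, which held no match. A match describes the letters and not a bound site. The windows of Sema4a (chr3:88461183-88461432, minus strand), Sema4b (chr7:80186620-80186869, plus strand), Sema6c (chr3:95160170-95160419, plus strand) and Efna4 (chr3:89338029-89338278, minus strand) overlap no annotated gene. They belong to 3 of the 4 semaphorin genes that rose and to the ephrin gene that fell, and Sema3f is not shown. The windows of Efnb2 and Ntn3, which rose, also overlap no annotated gene. They held no match and are not shown. The sequences below are given 5′ to 3′ with matches in capitals.
Sema4a: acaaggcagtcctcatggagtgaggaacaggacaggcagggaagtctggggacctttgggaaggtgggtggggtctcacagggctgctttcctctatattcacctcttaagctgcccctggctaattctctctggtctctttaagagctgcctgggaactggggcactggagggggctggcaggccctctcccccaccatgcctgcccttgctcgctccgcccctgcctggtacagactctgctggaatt
Sema4b: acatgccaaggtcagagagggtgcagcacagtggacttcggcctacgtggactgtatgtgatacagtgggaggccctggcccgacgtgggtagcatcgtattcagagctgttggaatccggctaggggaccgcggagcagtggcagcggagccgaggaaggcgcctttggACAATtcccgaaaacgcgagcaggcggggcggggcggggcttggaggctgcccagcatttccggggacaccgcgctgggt
Sema6c: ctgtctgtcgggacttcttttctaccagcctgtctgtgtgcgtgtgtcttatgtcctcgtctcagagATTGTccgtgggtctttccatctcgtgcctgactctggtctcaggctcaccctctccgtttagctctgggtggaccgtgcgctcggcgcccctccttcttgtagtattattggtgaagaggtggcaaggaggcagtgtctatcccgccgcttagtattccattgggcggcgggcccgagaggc
Efna4: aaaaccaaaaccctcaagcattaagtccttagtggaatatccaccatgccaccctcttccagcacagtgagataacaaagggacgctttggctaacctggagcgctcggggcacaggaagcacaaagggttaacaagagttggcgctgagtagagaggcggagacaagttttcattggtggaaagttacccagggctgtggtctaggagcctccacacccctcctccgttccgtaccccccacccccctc
The Sema4b match began 80 bases and the Sema6c match 183 bases before the start. Sema4a, the called gene least dependent on any single array, and Efna4 held neither ACAAT nor ATTGT in this window. Other sequences that Sox proteins may bind were not searched.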

How the data were processed

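Biotinylated cRNA was hybridised to Illumina arrays, per the labels' protocols. The authors deposited normalized intensities, linear and background-subtracted; between 29.1% and 29.2% of each array's values are below 0, and the sorted arrays differ by at most 0.394, so that overall differences in RNA amount are removed. No source used here names the software. A second table's 10 per-sample columns match no label and were not used.

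Values below 0 were set to 0 and log2(intensity + 16) was taken. The noise threshold was the 90% quantile of the sizes of an array's values below 0. The 2 groups were compared over all 5 arrays with limma 3.58.1 (lmFit, eBayes; R 4.3.3), 3 residual degrees of freedom and no covariate, after a test on simulated data. Exact permutation of 5 arrays cannot go below p = 0.1. An "at least" fold sets the brighter group's mean log2 intensity against the higher of threshold and own signal. The number of arrays limits precision.

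Gene names came from the platform annotation (20984 probes with 1 symbol, 1 with several, 3628 unlisted); all 59 member symbols matched RefSeq GRCm38.p6. Members and lists were chosen with earlier results of these data known. Named were all called members, the brightest uncalled ones of each class, genes whose probes disagree, and the called partner and effector genes. Shared replicate numbers were taken as names, because no label ties them to a culture. Deviations from group means correlated at 0.0072 and 0.073 for same-numbered arrays and at -0.073 to 0.065 for the other pairs. The deviations of 2 control arrays mirror each other, so these values cannot decide whether the numbers mark shared cultures. Alternatives were other offsets, filters, cyclic loess, an intensity trend, probe means, a replicate block and each array left out. Tables and figures used Python 3.11.15, pandas 2.3.3, scipy 1.17.1 and matplotlib 3.10.9.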

Additional observations from a re-analysis of the deposited data

How the results depend on the processing

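Few calls of guidance genes held under every alternative. Of the 12 called members, 1 (Sema4a) was called with each array left out, 3 (Plxna2, Sema4a, Sema4b) under every alternative offset, filter, normalization, variance model and probe rule, and 8 with the replicate number as a block. Over the 522 member values recomputed, 444 kept direction and side of the threshold, 50 lost and 13 gained a call, and 15 changed sign. Without a filter on dim probes, 3 members rose and 1 fell, with 2 ligands, 2 effectors and 770 of all genes called. The member that fell there was Robo1, not called with the filter, while Efna4, Epha4 and Sema4g lost their calls. More probes enter the adjustment there. Standard errors changed too, from 0.0929 to 0.0327 for Sema4a and from 0.257 to 0.322 for Efnb3. Called receptors numbered 5 with an intensity trend, with values below 0 kept and with probes above noise on all 5 arrays. Called partners numbered 5 with the trend and with values below 0 kept. The trend gave 13 called effectors and 2621 genes. The replicate block, in which knockdown replicate 3 has a block of its own and so adds nothing to the difference, gave 1 receptor, 4 effectors and 828 genes. It ended the calls of Epha4, Ntn3, Robo4, Sema6c, Arhgef11, Gipc1 and Vav3. Robo1 was called under 6 alternatives (adjusted p from 0.025 to 0.046) and Unc5b under 3 (0.0095 to 0.049). Neither was called with probe means, with the replicate block or with any 1 knockdown array left out. For Robo1 the adjusted p was 0.44 with probe means and 0.165 with the block. The cause was not tested.

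With arrays left out, members that rose numbered 1 to 6 and those that fell 0 to 2, ligands 1 to 7, receptors 0 to 1, partners 2 to 4, effectors 2 to 5 and all genes 443 to 1107. A lone control array is assumed there to vary like the knockdown arrays. Sign changes were seen in uncalled members only. Plxna4 differed by 0.015 and Unc5a by 0.14 under the block. With arrays left out, Epha8 ranged from -0.053 to 0.14, Plxna4 from -0.20 to 0.14, Plxnb1 from -0.45 to 0.38, Sema5a from -0.29 to 0.022, Slit1 from -0.16 to 0.15 and Unc5a from -0.12 to 0.14.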
